A study of Mus musculus with 5 samples.

Results

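Genes that take up, activate and burn fatty acids were followed in MIN6 cells that had been given exosomes from mouse muscle. The genes were a list of 35 names covering transport and binding, acyl-CoA synthetases, the carnitine shuttle, beta oxidation, electron transfer, thioesterases, PPAR regulators and PPAR or lipid droplet genes. They were chosen by name, and each was read through the probe with the highest mean signal among the array probes that carry its name. A probe was found for 34 of the 35 names, and 33 of these were bright enough to be tested, out of 25880 tested genes in all. Eci1 had no probe under that name, and Acot1 was too dim to test.

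MIN6 is an insulin-secreting line from a mouse insulinoma that serves as a model of the pancreatic beta cell. In the EXO-STD group (n = 2 arrays) the exosomes given to the cells came from muscle of standard-diet mice, and in the EXO-HP group (n = 3 arrays) from muscle of mice fed a high fat diet. The muscle had been removed from the animals and released its vesicles ex vivo, so both groups share the MIN6 background and treatment with muscle vesicles. No array of cells without vesicles was analysed here, and the vesicle dose, the exposure time, the age of the mice and the number of mice behind each preparation are not given in the sources used here. One sample of RNA was hybridised to each 1-colour Agilent array. The labels call the samples biological replicates without naming separate cultures, and a p-value here reflects only how far these arrays spread, part of which may be technical.

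Beta cells use fatty acids both as fuel and as a signal that amplifies insulin secretion. After transport through the membrane and binding to carrier proteins, a fatty acid is joined to coenzyme A, passed into the mitochondrion on carnitine, and shortened step by step by the enzymes of beta oxidation, which hand their electrons to the respiratory chain. Many genes of this route are switched on by the PPARs, nuclear receptors that bind fatty acids and sit on DNA as partners of RXR at paired copies of the half-site AGGTCA.

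The sequences just upstream of 4 members are given as examples, not as a typical promoter layout of the list. They are the 250 bases before the RefSeq transcript start on GRCm38.p6, written 5′ to 3′ on the strand of the gene, with capitals marking AGGTCA on either strand. Hadhb was chosen because it faces Hadha, and Acadvl, Cpt1a and Plin2 because each holds the half-site:
Hadhb, chr5:30155003-30155252, plus strand: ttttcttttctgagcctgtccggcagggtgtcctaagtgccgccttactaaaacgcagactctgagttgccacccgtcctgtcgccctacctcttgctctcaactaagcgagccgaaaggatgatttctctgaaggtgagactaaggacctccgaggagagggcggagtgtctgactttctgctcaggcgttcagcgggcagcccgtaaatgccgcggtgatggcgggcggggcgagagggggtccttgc
Acadvl, chr11:70015429-70015678, minus strand: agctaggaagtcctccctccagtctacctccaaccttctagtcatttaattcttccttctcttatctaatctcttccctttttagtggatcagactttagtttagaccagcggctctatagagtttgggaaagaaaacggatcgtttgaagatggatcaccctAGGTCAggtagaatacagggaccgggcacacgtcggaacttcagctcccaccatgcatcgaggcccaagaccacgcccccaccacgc
Cpt1a, chr19:3323051-3323300, plus strand: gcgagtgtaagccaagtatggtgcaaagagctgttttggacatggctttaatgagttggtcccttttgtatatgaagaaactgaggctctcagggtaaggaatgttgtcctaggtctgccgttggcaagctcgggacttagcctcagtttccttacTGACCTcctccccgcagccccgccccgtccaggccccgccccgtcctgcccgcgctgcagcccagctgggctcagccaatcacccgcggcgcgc
Plin2, chr4:86670060-86670309, minus strand: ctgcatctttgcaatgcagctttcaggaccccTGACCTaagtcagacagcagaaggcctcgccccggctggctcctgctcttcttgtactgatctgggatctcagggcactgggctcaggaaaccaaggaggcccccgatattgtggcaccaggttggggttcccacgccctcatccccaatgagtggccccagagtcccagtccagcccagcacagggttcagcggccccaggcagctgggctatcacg
The start of Hadha, on the minus strand, lies at position 30154980 of chromosome 5 and that of Hadhb, on the plus strand, at 30155253. The 2 genes are thus transcribed away from each other from starts 273 bases apart, and the Hadhb sequence above covers most of that interval. There was 1 copy of the half-site in each of the other 3 sequences, beginning 87 bases before the start of Acadvl as written, and 94 bases before Cpt1a and 218 bases before Plin2 as the reverse complement. Of the 35 genes 32 had a promoter in the RefSeq table, all but Angptl4, Cpt1b and Fabp5. Among the 32, 7 held AGGTCA in this window (21.9%), namely Acadm, Acadvl, Cd36, Cpt1a, Cpt1c, Plin2 and Slc27a2. Among all 27025 genes of the table the share was 15.8%. A match describes the letters only.

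On the arrays, 73.4%, 71.8% and 74.0% of spots were well above background on slide 1, which held both EXO-STD arrays and EXO-HP replicate 1, and 91.6% and 81.6% on slide 2, which held EXO-HP replicates 2 and 3. Scan coincided with slide. The number of arrays limits the precision. All 15 beta cell markers were bright enough to be tested. So were all 6 of endothelium, so this alone does not bear out the beta cell label. Of the endothelium markers 3 were well above background on neither EXO-STD array, against 0 of the beta cell markers. Ins1 read 7.47 and 7.43 on the EXO-STD arrays (replicates 1 and 2) and 7.57, 7.60 and 7.61 on the EXO-HP arrays (replicates 1, 2 and 3). Of the 15 beta cell markers 13 had a higher mean in EXO-HP (median log2 fold change 0.15). For 5 of them all EXO-HP arrays lay above both EXO-STD arrays, against 15.2% of all genes. For 0 they lay below both, against 2.8%. Other marker lists had 3 of 5 tested genes higher for other islet hormone cells, 5 of 6 for fibroblasts and 6 of 7 for macrophages. For endothelium 4 of 6 were higher and for acinar and duct cells 6 of 7, with 0 past the test in these lists. At an unadjusted p under 0.05 by limma, 2 macrophage markers and 1 fibroblast marker were higher, against 5.65% of all tested genes. Well above background on neither EXO-STD array were 3 of 8 fibroblast, 2 of 8 macrophage, 3 of 6 endothelium and 3 of 8 acinar and duct markers. Those of them that were tested entered through the EXO-HP arrays only. Of all tested genes 62.5% were higher. All values below are log2 signal relative to the 75th percentile of the array, so they compare arrays for 1 gene and not genes with each other, and a fold change is the mean of EXO-HP minus that of EXO-STD with its standard error (SE).

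No fatty acid gene passed the test. With limma, 0 of 33 tested members had an adjusted p under 0.05, as did 0 of 31943 probes overall (0%), and the smallest adjusted p of a member was 0.886. At an unadjusted p under 0.05 there was 1 member higher in EXO-HP, Slc27a1, where 5.65% of all tested genes met that mark, and 0 members lower, where 0.24% did. The EXO-HP arrays lay above both EXO-STD arrays for 3 members, Slc27a1, Fabp3 and Ppara, against 15.2% of all genes, and below both for 1, Etfa, against 2.8%. Of 33 members, 19 had a higher mean in EXO-HP and 14 a lower one, where 62.5% of all genes were higher. With only genes well above background on all 5 arrays, 16 of 30 members and 57.7% of all genes were higher.

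The median log2 fold change of the 33 members was 0.06, beside 0.07 over all tested genes. Single members ranged from -0.30 to 0.82, the latter for Slc27a2, which was dim. The median moved with the scaling of the arrays, which also moved all genes. With each array's median subtracted it was -0.11, with 11 members higher, while all genes had a median of -0.10 with 35.6% higher. With quantile normalisation 14 members and 47.6% of all genes were higher. For 24 of the 33 members the 95% interval of the difference lay within a 2-fold change either way, which was so for 61.7% of all genes. The other 9 were Slc27a1, Slc27a2, Fabp3, Fabp5, Acads, Ech1, Etfb, Acot2 and Plin2.

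**Figure D1:**
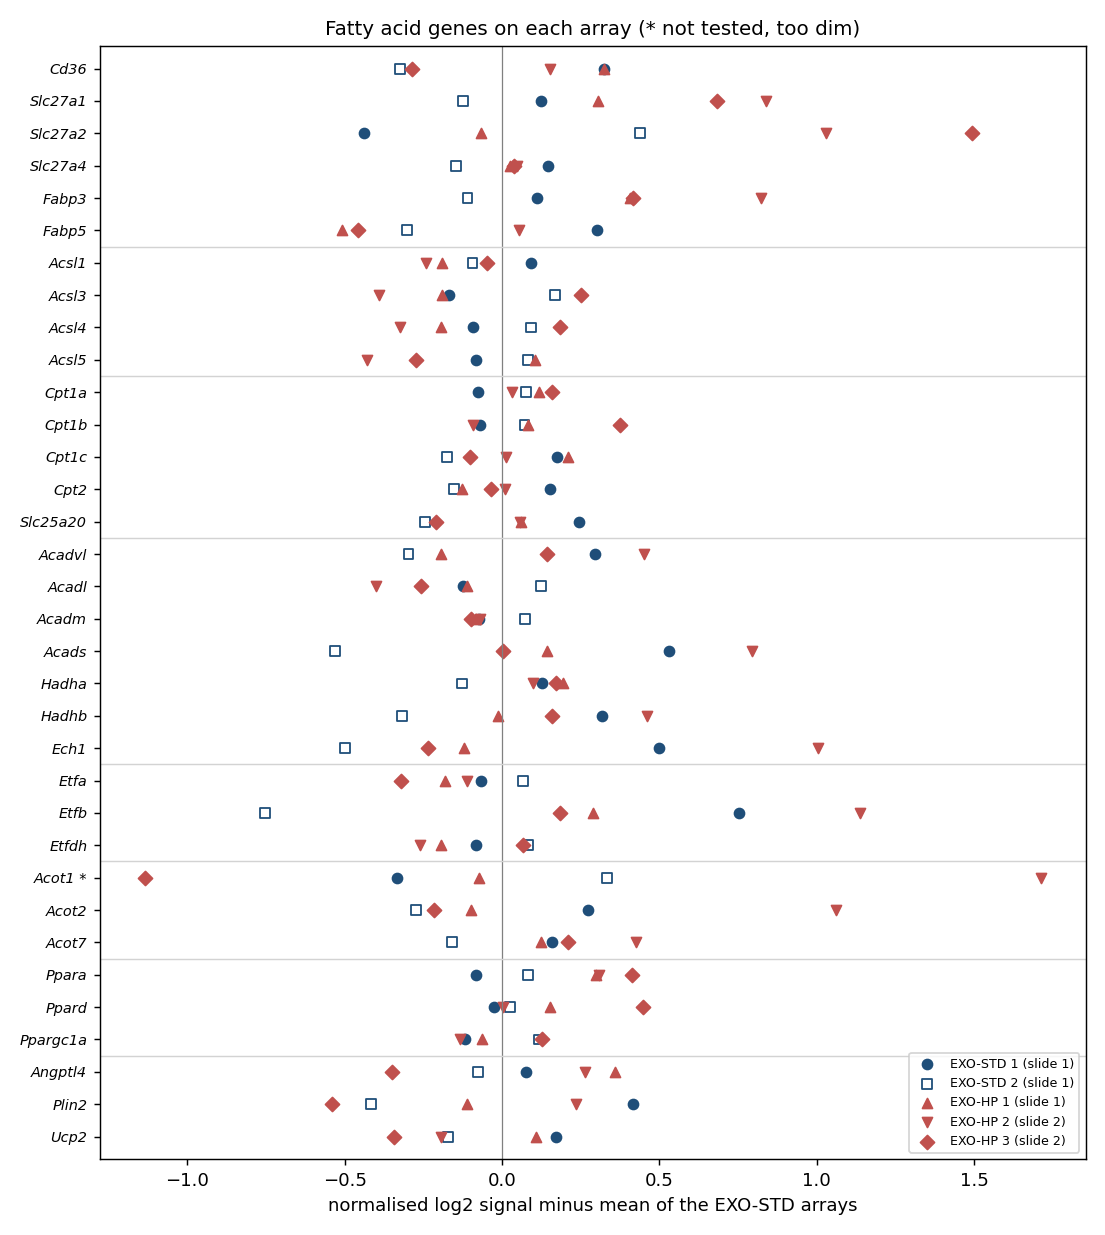
Each row is a member, grouped by role, and each point is 1 array: normalised log2 signal minus the mean of the EXO-STD arrays, with EXO-STD in blue and EXO-HP in red. The EXO-HP arrays lie to the right of both EXO-STD arrays for Slc27a1, Fabp3 and Ppara and to the left for Etfa, whereas Etfb spans from -0.75 (EXO-STD replicate 2) to 1.14 (EXO-HP replicate 2).

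Among the transporters and binding proteins, Slc27a1 stood highest relative to its spread. Slc27a1 encodes FATP1, a transport protein that couples fatty acid uptake to activation and is typical of muscle and fat. It read -1.32 and -1.56 on the EXO-STD arrays (replicates 1 and 2) and -1.13, -0.60 and -0.76 on the EXO-HP arrays (replicates 1, 2 and 3). All 3 EXO-HP arrays were above both EXO-STD arrays, with those of slide 2 the highest. The means were -1.44 ± 0.17 (SD, n = 2) and -0.83 ± 0.27 (SD, n = 3), a log2 fold change of 0.61 ± 0.24 (1.53-fold, 95% interval 0.002 to 1.22) with a limma unadjusted p of 0.0495 and an adjusted p of 0.886. With slide as a fixed block, which leaves the contrast of slide 1, the value was 0.31. Its single probe lies at chromosome 8, 74110256 to 74110315 (mm9).

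Fabp3, the heart-type carrier that binds fatty acids in the cytosol of muscle, read -3.94 and -4.16 on the EXO-STD arrays (replicates 1 and 2) and -3.64, -3.23 and -3.63 on the EXO-HP arrays (replicates 1, 2 and 3). Both EXO-STD arrays were the lowest and EXO-HP replicate 2 the highest. Its log2 fold change was 0.55 ± 0.23 (1.46-fold, 95% interval -0.02 to 1.12, limma adjusted p = 0.901). The probe, at chromosome 4, 129992652 to 129992711 (mm9), shares 51 of its 60 bases with a second Fabp3 probe, which gave 0.19 ± 0.24 with overlapping groups. The value was 0.35 with quantile normalisation, 0.34 with normexp background correction and 0.26 in the authors' deposited table of log2 values.

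Slc27a1 and Fabp3 are also abundant in skeletal muscle, whose markers were measured alongside. Of 15 muscle markers 12 were tested, and all 12 had a higher mean in EXO-HP (median 0.52). None passed (0 of 12 by limma, with 3 at an unadjusted p under 0.05). Of all tested genes 62.5% were higher (median 0.07), and 5.65% were higher at an unadjusted p under 0.05. Dim genes rose more, with a median log2 fold change of 0.86 in decile 1 and 0.35 in decile 2 by signal, from the dimmest. How far that shift entered the muscle markers was not tested. Set against the EXO-STD mean, the median muscle marker was 0.12 and -0.12 on the pair of EXO-STD arrays, then 1.18, 0.45 and 0.11 for EXO-HP in replicate order. On the EXO-HP arrays in the same order Slc27a1 was at 0.31, 0.84 and 0.68 and Fabp3 at 0.41, 0.82 and 0.42. The muscle markers were highest on replicate 1 and these 2 genes on replicate 2. The summed level of the 15 markers, in units of the 75th percentile signal, was 1.11 to 1.47 in EXO-STD and 1.38 to 2.52 in EXO-HP, and 5 of the 15 were not well above background on either EXO-STD array. Actin Acta1 had 1.01 ± 0.73 and creatine kinase Ckm 0.03 ± 0.42. The part of the muscle markers' difference in the values of Slc27a1 and Fabp3 was not tested. In such bulk RNA, a change in the number of cells of a kind and a change in RNA per cell cannot be told apart.

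The other 4 genes of this group gave no such separation. Cd36, the fatty acid translocase of the cell surface, was close to the detection limit and read -5.45 and -6.10 with EXO-STD and -5.45, -5.62 and -6.06 with EXO-HP, in the order of the replicates, a difference of 0.06 ± 0.31. It was well above background on 1 of 2 EXO-STD arrays and all 3 EXO-HP arrays. Slc27a2, known as FATP2 and also an acyl-CoA synthetase for very long chains, was similarly dim. It was well above background on 1 of 2 EXO-STD arrays and 2 of 3 EXO-HP arrays. Slc27a2 read -6.62 and -5.75 with EXO-STD and -6.25, -5.16 and -4.69 with EXO-HP. Its highest readings were on slide 2, and the difference of 0.82 ± 0.53 was -0.07 with slide as a block. Both genes lie in decile 2 of all tested genes ranked by signal from the dimmest, where the median gene stood at 0.15, 0.78 and 0.21 above EXO-STD on EXO-HP replicates 1, 2 and 3. The part of that shift in dim members was not tested.

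Slc27a4, or FATP4, had nearly the same value on every EXO-HP array and read -1.87 and -2.16 with EXO-STD and -1.99, -1.97 and -1.98 with EXO-HP. The difference was 0.04 ± 0.20 (95% interval -0.45 to 0.53). Fabp5, the carrier named for the epidermis that also delivers fatty acids to PPARD, read 3.09 and 2.49 with EXO-STD and 2.28, 2.84 and 2.33 with EXO-HP. Here EXO-STD replicate 1 was the highest array and EXO-HP replicate 2 the next, and the difference of -0.30 ± 0.30 lay within the spread of the groups. Over the 6 genes of transport and binding, 5 had a higher EXO-HP mean (median 0.31). With quantile normalisation or median scaling 3 of 6 did (medians 0.11 and 0.13). Cd36 and Slc27a2 entered the test through the EXO-HP arrays only. Of the 4 genes well above background on all 5 arrays, 3 were higher (median 0.29).

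Of the long-chain acyl-CoA synthetases, which activate fatty acids, all 4 had a lower mean in EXO-HP, by small amounts within the spread of the arrays. Acsl1, the main synthetase of oxidative tissues and a PPAR target, read 0.34 and 0.15 with EXO-STD and 0.05, 0.002 and 0.19 with EXO-HP (-0.16 ± 0.20). Acsl3, which serves lipid droplet growth at the endoplasmic reticulum, read -1.54 and -1.21 with EXO-STD and -1.56, -1.77 and -1.12 with EXO-HP (-0.11 ± 0.27). Groups overlapped for both.

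Acsl4, which prefers arachidonic acid, read 2.31 and 2.49 with EXO-STD and 2.21, 2.08 and 2.58 with EXO-HP (-0.11 ± 0.24). Acsl5, a synthetase of mitochondria and endoplasmic reticulum, read 2.05 and 2.21 with EXO-STD and 2.24, 1.70 and 1.86 with EXO-HP (-0.20 ± 0.24). EXO-HP replicate 2 was the lowest array for Acsl3, Acsl4 and Acsl5 as well as for the brighter probe of Acsl1. The median of the 4 was -0.14, and it was -0.16 with quantile normalisation and -0.31 with median scaling, with all 4 lower under each. With slide as a block Acsl5 was higher at 0.11. The second probe of Acsl1 went the other way, at 0.36 ± 0.19 with EXO-HP above EXO-STD on every array, so the 2 probes of this gene disagree. None of the 4 passed (adjusted p = 1.00 for each by limma).

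On the brightest probes the carnitine shuttle differed little between the groups. Cpt1a, the carnitine palmitoyltransferase of the outer mitochondrial membrane that sets the pace of fatty acid oxidation in liver and islets, read -1.11 and -0.96 with EXO-STD and -0.91, -1.002 and -0.88 with EXO-HP. The groups overlapped, and the log2 fold change was 0.10 ± 0.19 (95% interval -0.37 to 0.57). This probe is printed 10 times on each array, and its spots had an SD of 0.06 to 0.13 within an array. A second, dimmer Cpt1a probe gave 0.55 ± 0.32.

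Cpt1b, the muscle form, read -3.58 and -3.44 with EXO-STD and -3.42, -3.60 and -3.13 with EXO-HP (0.12 ± 0.23), with 0.17 ± 0.22 from its second probe. Cpt1c, the form of neurons that sits in the endoplasmic reticulum, read 1.07 and 0.73 with EXO-STD and 1.11, 0.91 and 0.80 with EXO-HP (0.04 ± 0.22), with 0.13 ± 0.23 from its second probe. The muscle form was thus not separated between groups on either of its probes.

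Cpt2, which regenerates acyl-CoA at the inner membrane, read 2.49 and 2.18 with EXO-STD and 2.21, 2.35 and 2.30 with EXO-HP (-0.05 ± 0.20), and Slc25a20, the carnitine-acylcarnitine carrier between both enzymes, had -0.03 ± 0.24. The second Cpt2 probe gave 0.23 ± 0.27. On the brightest probe of each of the 5 genes of the shuttle the 95% interval lay within a 2-fold change, and their median was 0.04. This does not extend to the second probes, such as that of Cpt1a at 0.55 ± 0.32. With median scaling, which lowered all genes, 0 of the 5 were higher and the median was -0.14.

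**Figure D2:**
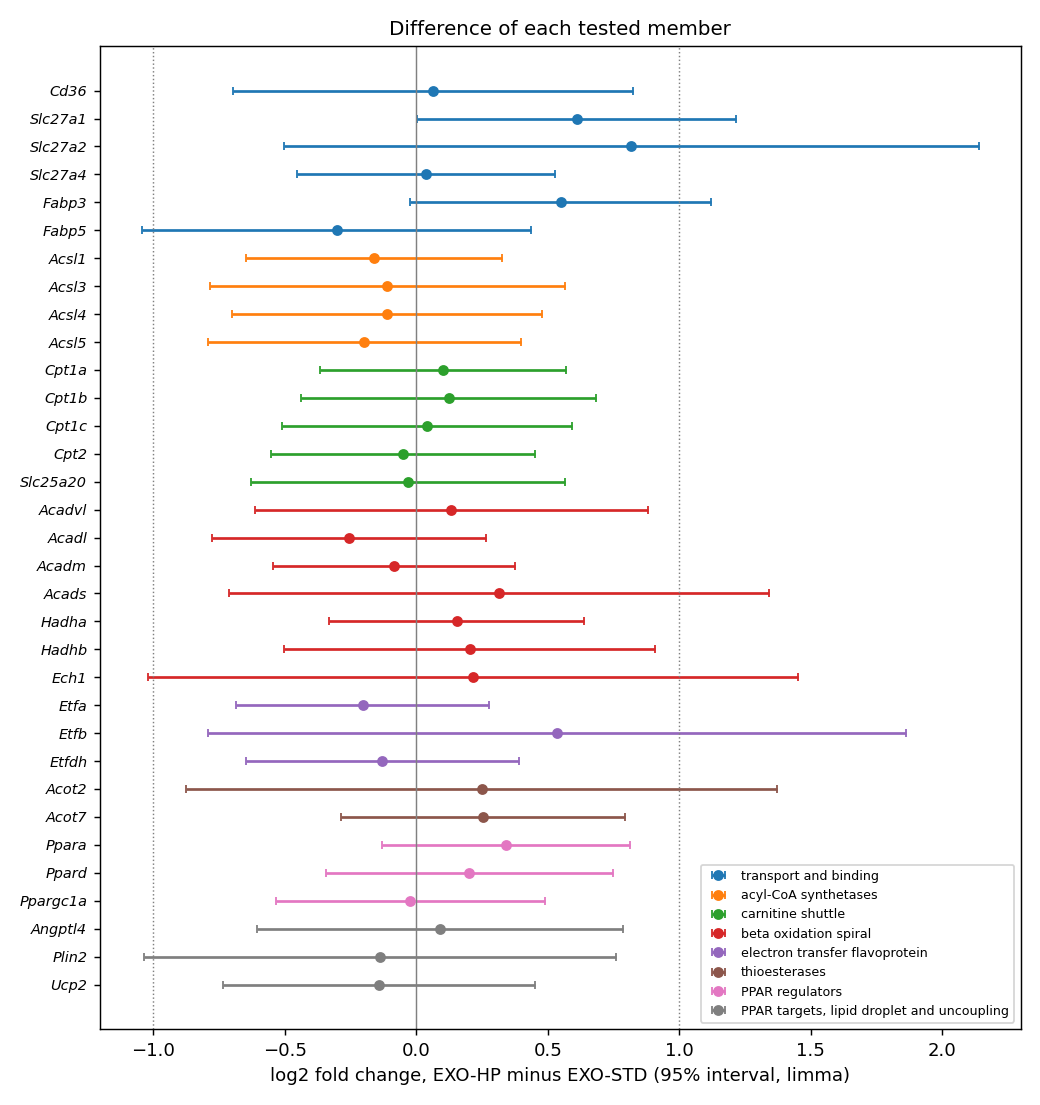
Points are log2 fold changes (EXO-HP minus EXO-STD) of the 33 tested members and bars their 95% intervals from limma, coloured by role; dotted lines mark a 2-fold change. The interval of Slc27a1 starts at 0.002 before adjustment, those of the other 32 members include 0, and the widest belong to Slc27a2, Etfb and Ech1.

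The acyl-CoA dehydrogenases open each round of beta oxidation, each for its own chain length, and none was separated between the groups. Acadvl, for very long chains, read 3.54 and 2.94 with EXO-STD and 3.04, 3.69 and 3.38 with EXO-HP (0.13 ± 0.30). Acadl, for long chains, read -0.26 and -0.01 with EXO-STD and -0.24, -0.53 and -0.39 with EXO-HP (-0.26 ± 0.21), with EXO-HP replicates 2 and 3 below both EXO-STD arrays. Acadm, for medium chains, was one of the tightest members at -0.08 ± 0.18 (95% interval -0.54 to 0.38), with EXO-HP values between 0.52 and 0.54 on the 3 arrays.

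Acads, for short chains, varied far more and read -1.06 and -2.12 on the EXO-STD arrays (replicates 1 and 2) and -1.45, -0.80 and -1.59 on the EXO-HP arrays (replicates 1, 2 and 3). The EXO-STD arrays differed by 1.06 between themselves, more than the difference of 0.31 ± 0.41 between the groups. Without EXO-STD replicate 2 the value was -0.22.

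Hadha and Hadhb, the alpha and beta subunits of the trifunctional protein that carries out the later steps for long chains, are the head-to-head pair shown above. Hadha read -0.43 and -0.68 with EXO-STD and -0.36, -0.46 and -0.39 with EXO-HP (0.15 ± 0.20), and Hadhb read 2.31 and 1.67 with EXO-STD and 1.98, 2.45 and 2.15 with EXO-HP (0.20 ± 0.28). Both means were slightly higher in EXO-HP, and EXO-STD replicate 2 was the lowest array for each. Apart from that array, the 4 readings of Hadha lay close together while Hadhb was highest on EXO-HP replicate 2.

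Ech1, an isomerase for unsaturated chains, read 1.17 and 0.17 on the EXO-STD arrays (replicates 1 and 2) and 0.55, 1.68 and 0.44 on the EXO-HP arrays (replicates 1, 2 and 3). EXO-HP replicate 2 and EXO-STD replicate 1 were the highest arrays, and the difference of 0.22 ± 0.50 was small beside a spread of 0.71 (SD, n = 2) and 0.68 (SD, n = 3). For Eci1, the isomerase of the list without a probe of its own name, the RefSeq accession of the probe named Dci on the array belongs to Eci1 in GRCm38.p6. That probe was found after the files were seen and is not counted among the members. It read 1.88 and 1.29 on the EXO-STD arrays (replicates 1 and 2) and 1.13, 1.98 and 1.20 on the EXO-HP arrays (replicates 1, 2 and 3), a difference of -0.15 ± 0.35, and shared with Ech1 the high readings on EXO-STD replicate 1 and EXO-HP replicate 2.

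The electron transfer flavoprotein, which collects the electrons of the dehydrogenases, gave unlike values for its subunits. Etfa, the alpha subunit, read 3.84 and 3.97 on the EXO-STD arrays (replicates 1 and 2) and 3.73, 3.79 and 3.59 on the EXO-HP arrays (replicates 1, 2 and 3). Every EXO-HP array was below both EXO-STD arrays, though by little, and the difference was -0.20 ± 0.19 (0.868-fold, 95% interval -0.68 to 0.28, limma adjusted p = 1.00). A second probe gave -0.10 ± 0.19 with overlapping groups. The brighter probe lies at chromosome 9, 55309428 to 55309487 (mm9).

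Etfb, the beta subunit, read 4.05 and 2.54 on the EXO-STD arrays (replicates 1 and 2) and 3.58, 4.43 and 3.48 on the EXO-HP arrays (replicates 1, 2 and 3). The EXO-STD arrays spanned 1.51 between them, the widest such gap of the tested members, and the group difference of 0.54 ± 0.53 changed to 1.29 without EXO-STD replicate 1 and to -0.22 without replicate 2. Etfdh, the oxidoreductase that passes the electrons on to ubiquinone, read 1.97 and 2.13 with EXO-STD and 1.86, 1.79 and 2.12 with EXO-HP (-0.13 ± 0.21). The tight Etfa and Etfdh thus stood beside a beta subunit that differed mainly within groups.

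The arrays that were high for Etfb, Ech1 and Acads were also high for the respiratory chain. Of 23 tested respiratory chain genes, 21 were higher on EXO-STD replicate 1 than on replicate 2 and highest on replicate 2 among the EXO-HP arrays. The same held for 13 of the 33 members, for 4 of the 7 tested genes of beta oxidation and for 32.8% of all tested genes. Against the EXO-STD average, the median respiratory chain gene stood at 0.31 and -0.31 on the pair of EXO-STD arrays, then -0.28, 0.31 and -0.26 for EXO-HP in replicate order, and the median beta oxidation gene at 0.30 and -0.30 on the pair of EXO-STD arrays, then -0.08, 0.45 and 0.004 for EXO-HP in replicate order. The median differences between the groups were -0.07 for the 23 genes and 0.15 for the 7, of which 5 had a higher EXO-HP mean. With median scaling 3 of the 7 did (median -0.02), and without EXO-STD replicate 2 it was 1 of 7. The part of this pattern in the members' values was not tested.

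**Figure D3:**
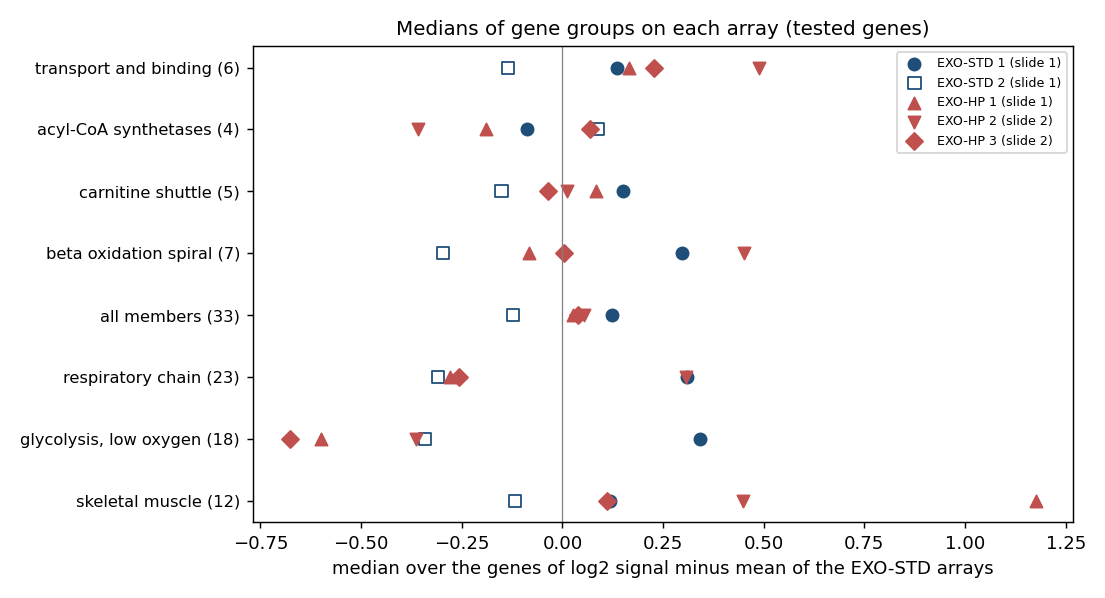
Each point is the median over the tested genes of a group on 1 array, as log2 signal minus the mean of the EXO-STD arrays, with the number of genes in brackets. Respiratory chain and beta oxidation medians are highest on EXO-STD replicate 1 and EXO-HP replicate 2, whereas the median of all 33 members stays between -0.12 and 0.12.

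Thioesterases release the fatty acid from coenzyme A again. Acot2, the mitochondrial form, was dim and read -5.38 and -5.92 with EXO-STD and -5.75, -4.59 and -5.87 with EXO-HP (0.25 ± 0.45), with EXO-HP replicate 2 the highest. Acot1, the cytosolic form and a PPARA target in liver, was well above background on 0 of 2 EXO-STD arrays and 1 of 3 EXO-HP arrays. It read -8.43 and -7.76 with EXO-STD and -8.17, -6.38 and -9.23 with EXO-HP, so no fold is given. Both genes are neighbours of closely similar sequence, and how far each probe also binds the other transcript was not tested. Acot7, a form rich in the brain, read -2.13 and -2.45 with EXO-STD and -2.17, -1.86 and -2.08 with EXO-HP (0.25 ± 0.22).

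Of the regulators, Ppara was separated between the groups on its brightest probe. PPARA is the receptor that drives fatty acid oxidation genes in fasting liver and is also made in islets. Ppara read -0.86 and -0.69 on the EXO-STD arrays (replicates 1 and 2) and -0.47, -0.47 and -0.36 on the EXO-HP arrays (replicates 1, 2 and 3). The EXO-HP readings were close together and all above EXO-STD, with means of -0.77 ± 0.12 (SD, n = 2) and -0.43 ± 0.06 (SD, n = 3) and a difference of 0.34 ± 0.19 (1.27-fold, 95% interval -0.13 to 0.81, limma adjusted p = 0.962). The dimmer pair of Ppara probes gave 0.05 ± 0.31 and -0.01 ± 0.26 with overlapping groups. The brightest one lies at chromosome 15, 85632534 to 85632593 (mm9).

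Ppard, the PPAR form found in most tissues, read -0.02 and 0.03 with EXO-STD and 0.15, 0.003 and 0.45 with EXO-HP (0.20 ± 0.22), with EXO-HP replicate 3 the highest. Ppargc1a, the coactivator of mitochondrial genes, read -2.70 and -2.46 with EXO-STD and -2.65, -2.71 and -2.46 with EXO-HP (-0.02 ± 0.21). Its second probe, which was not well above background on every array, gave 0.29 ± 0.34. The median of the 3 regulators was 0.20, and it was 0.02 with median scaling.

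The 3 members grouped as PPAR target, lipid droplet and uncoupling genes showed no separation between EXO-HP and EXO-STD. Angptl4, a secreted inhibitor of lipoprotein lipase, read -4.26 and -4.41 with EXO-STD and -3.98, -4.07 and -4.69 with EXO-HP (0.09 ± 0.28), with EXO-HP replicates 1 and 2 above and replicate 3 below both EXO-STD arrays. Plin2, the coat protein of lipid droplets, read 0.40 and -0.43 with EXO-STD and -0.12, 0.22 and -0.55 with EXO-HP (-0.14 ± 0.36). Ucp2, a mitochondrial carrier that restrains insulin secretion in beta cells, read -0.09 and -0.44 with EXO-STD and -0.16, -0.46 and -0.61 with EXO-HP (-0.14 ± 0.24). Groups overlapped for all 3.

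Angptl4 and Plin2 are also induced by low oxygen. In a list of glycolysis and low oxygen genes 17 of 18 tested had a lower mean in EXO-HP, at a median of -0.53. By limma 0 of the 18 passed and 6 were lower at an unadjusted p under 0.05. Of all tested genes 62.5% were higher, and 0.24% were lower at an unadjusted p under 0.05. Relative to the EXO-STD mean, the list's median was 0.34 and -0.34 on the pair of EXO-STD arrays. It was -0.60, -0.36 and -0.68 for EXO-HP in replicate order. Plin2 was likewise highest on EXO-STD replicate 1, while Angptl4 was highest on EXO-HP replicate 1, where the list's median was below both EXO-STD arrays. The list was drawn up with its earlier values known, so its direction is no independent evidence.

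In the wider pathway, differences were small and mixed in direction. Of 16 other mitochondrial acyl-CoA and ketone enzymes, 7 were higher and 9 lower (median -0.02), with the short-chain dehydrogenase Hadh at -0.16 ± 0.20. Hadh read 0.39 and 0.29 with EXO-STD and 0.09, 0.34 and 0.11 with EXO-HP, in replicate order. Of 16 peroxisomal genes 9 were higher and 7 lower (median 0.03). These lists had 0 genes past the test, and 0 at an unadjusted p under 0.05 by limma. Of all tested genes 5.65% were higher and 0.24% lower at that mark, and 62.5% had a higher mean. The groups were separated upward for 1 gene in each list (15.2% of all genes). Downward it was 0 mitochondrial and 2 peroxisomal genes (2.8%).

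Of 20 genes of lipid droplets, lipolysis and triglyceride synthesis, 10 were higher and 10 lower (median -0.02). Pnpla2, the lipase ATGL that starts lipolysis, had -0.07 ± 0.21, and Lpl, lipoprotein lipase, read 0.83 and 2.39 with EXO-STD and 1.65, 0.75 and 1.82 with EXO-HP (-0.20 ± 0.56). Lpl was low on EXO-STD replicate 1 and EXO-HP replicate 2, the arrays on which the respiratory chain was high. Of 19 tested regulators 12 were higher (median 0.04), and Pdk4, a kinase that spares glucose when fat is burned, was at 0.20 ± 1.08 near the detection limit. Of 19 tested further transporters, synthetases, binding proteins and thioesterases, 13 were higher (median 0.10), with Dbi, the acyl-CoA binding protein, at 0.13 ± 0.39. By limma 0 genes of these 3 lists passed, and 0 had an unadjusted p under 0.05. Of all tested genes 5.65% were higher and 0.24% lower at that mark, and 62.5% had a higher mean. The groups were separated upward for 2, 3 and 2 genes of the lists in this order (15.2% of all genes). Downward it was 1, 0 and 0 (2.8%). Adipocyte markers, which share genes with this pathway, had 4 of 7 tested members higher (median 0.01), 1 of them at an unadjusted p under 0.05 by limma. Of the 9 adipocyte markers 3 were well above background on neither EXO-STD array, among them adiponectin (Adipoq).

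The size of the difference in the 4 members with separated groups varied with the processing. Their direction is fixed by that separation when an array is left out and with slide or replicate number as a fixed block, so it shows no stability there. The log2 fold change of Slc27a1 ranged from 0.31 to 0.76, that of Fabp3 from 0.26 to 0.66, that of Ppara from 0.13 to 0.42 and that of Etfa from -0.38 to -0.14 over 16 alternatives. In the 15 of these that were fitted with limma, 0 of the 4 had an adjusted p under 0.05. The lowest adjusted p of these 4 was 0.327, for Slc27a1 without EXO-HP replicate 1.

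**Figure D4:**
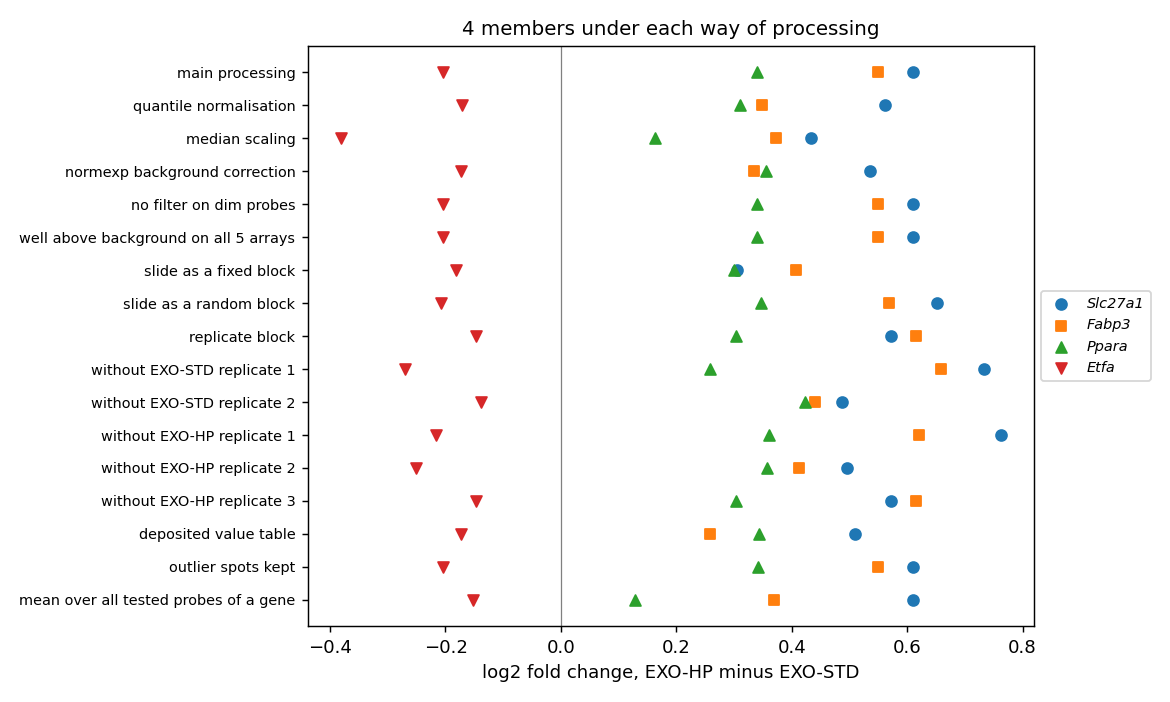
Each row is a way of processing or a left-out array and each point the log2 fold change (EXO-HP minus EXO-STD) of 1 of the 4 members whose groups did not overlap. The side of 0 is fixed by the choice of these members in the rows with a left-out array, a fixed slide block or a replicate block, and Slc27a1 falls to 0.31 with slide as a fixed block and Fabp3 to 0.26 in the deposited values.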

How the data were processed

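The scanner tables hold Cy3 intensity values deposited by the authors and produced by Feature Extraction (version 10.7.3.1 per the file headers), with background subtraction, detrending and surrogates for dim spots but no scaling between arrays. Agilent Feature Extraction 9.1 and limma are named in the submitters' processing notes. A deposited table holds log2 values with equal distributions on all arrays (median 7.93), in the rank order of mean signal minus local background (Spearman rho = 1).

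Here log2 processed signal was averaged over the spots of a probe without outlier spots and set to each array's 75th percentile. A probe was tested if 2 or more arrays of either group had it well above background (31943 probes), by limma 3.58.1 in R 4.3.3, no covariates and Benjamini-Hochberg adjustment. The fit was tested on simulated data. The smallest 2-sided p of an exact permutation test is 0.2 in this design. The probe with the highest mean signal stood for a gene. For genes outside the list, symbols were updated through RefSeq accessions of GRCm38.p6, which named 66.1% of probes. Positions of probes come from the annotation in the deposited files (mm9), and exon annotation was not used here.

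All members are named. From the other pathway lists Hadh, Pnpla2, Lpl, Pdk4 and Dbi were named by role, and the other genes of that rule are not reported here. The members and lists were chosen with earlier results of these data known. The alternatives were other scalings, background corrections and filters, slide or replicate number as a block, each array left out, the deposited values, outlier spots kept and the mean over probes.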

Additional observations from a re-analysis of the deposited data

How the results depend on the processing

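In each of the 15 alternatives fitted with limma 0 members passed an adjusted p of 0.05, and the smallest adjusted p of a member was 0.314. Leaving out 1 EXO-HP array at a time gave between 0 and 2 members higher at an unadjusted p under 0.05. In those fits 3.11% to 11.3% of all genes were under it in either direction, with 11.3% where there were 2 members. Leaving out any 1 array gave 4 to 16 members with groups separated upward (20.4% to 34.8% of all genes) and 3 to 8 downward (4.93% to 16.3%). A higher mean was found for 12 to 23 members (58.6% to 64.4% of all genes). The members' median was -0.11 to 0.18, beside 0.06 to 0.12 over all genes. Its extremes were those without EXO-STD replicate 2 and without EXO-STD replicate 1. The 1 member at an unadjusted p under 0.05 became 0 with quantile normalisation, median scaling, no filter, slide as a fixed block, the deposited table or outlier spots kept. It became 2 with a filter on all 5 arrays or slide as a random block. Of all genes 5.89% were under that mark in either direction in the main run. The share was 2.09% to 5.82% in the former runs, and 4.26% and 7.43% in the latter. The median was -0.078 with quantile normalisation. With median scaling it was -0.11, with 11 members higher and 5 separated downward (11.2% of all genes). The causes were not tested. Replicate numbers 1 and 2 occur in both groups, and the labels do not say whether they pair samples. Deviations of same-numbered arrays from their group mean correlated at 0.02 and -0.06 over probes. This cannot decide the pairing, since the 2 EXO-STD arrays deviate from their mean as mirror images. A replicate block over those 4 arrays left 0 members at an unadjusted p under 0.05 (5.4% of all genes in either direction). It left 4 separated upward (20.4% of all genes) and 5 downward (4.93%). Of the 33 members 10 kept their sign in every alternative, among them the 4 with separated groups, whose direction several alternatives could not change. Of 525 single values 61 had the other sign, but many of the rest could not differ from the main run. Both filters on signal keep the main values, and the replicate block repeats those without EXO-HP replicate 3. These counts are thus no measure of stability. Signal over background limits Cd36, Slc27a2, Acot1 and Acot2, which were not well above background on every array.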
